A study of Homo sapiens with 9 samples.

Results

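The machinery that carries a cell through G1 was examined at 6 genes in DND-41, an established human line of T-cell acute lymphoblastic leukemia. They are CDK6 (a G1 cyclin-dependent kinase), CCND2 and CCND3 (D-type cyclins) and CDKN1A, CDKN1B and CDKN2A (inhibitors of cyclin-dependent kinases). The genes were chosen as parts of this machinery, with earlier results of these data known, and their peaks were taken by position. A locus is the gene in hg19, rounded to 1 kb, plus 25 kb on each side. Distances to a gene end are measured to that rounded edge. The 6 loci held 264 of the 183634 peaks in 5 lists of CUT&RUN peaks. CUT&RUN sequences the DNA released by a nuclease that an antibody tethers to its target.

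The 5 libraries were H3K27ac after 100 nM ACBI-1, H3K27ac after its vehicle DMSO, and BRG1, RUNX1 and H3K4me3 in DND-41 cells with no treatment label. ACBI-1 degrades the SWI/SNF ATPases SMARCA2 and SMARCA4 (BRG1) and the subunit PBRM1. H3K27ac marks active promoters and enhancers, H3K4me3 marks mainly promoters, and RUNX1 is a DNA-binding factor of the hematopoietic lineages. Each target and condition had 1 library of 1 cell line, so the differences given here have no replicate check, and there is no test or p-value. The other 4 samples of the series, IgG or input controls, were not analysed here.

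Cyclin D binds CDK4 or CDK6, and the complex phosphorylates the retinoblastoma protein, which releases E2F factors and lets the cell enter S phase. CDKN2A encodes p16INK4a, which blocks CDK4 and CDK6, and from a separate upstream promoter p14ARF, which stabilises p53. CDKN1A encodes p21, a p53 target, and CDKN1B encodes p27. Both bind cyclin-CDK complexes. In developing T cells cyclin D3 and CDK6 drive proliferation, and CDKN2A is often deleted in T-cell leukemia.

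H3K27ac had 52967 peaks in ACBI and 90495 in DMSO, and there were 7445 peaks of BRG1, 19893 of RUNX1 and 12834 of H3K4me3. They hold positions only, so read depth and peak height are unknown. The ACBI list is also the shorter in the genome, with a lower covered length (70.8 Mb in ACBI and 127.0 Mb in DMSO), and the part of read depth in this was not tested. Coordinates are in hg19 and count from 1. Intervals on shares are exact Clopper-Pearson 95% intervals over peaks and cover counting error only. The intervals take peaks as independent, which neighbouring peaks of a locus are not.

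The gene starts concerned are shown first, because the H3K27ac difference at CDKN1A, which runs over the locus, includes its promoter. Promoters of the other inhibitor genes and the kinase gene are printed beside it. RefSeq's GRCh38.p14 table gave promoter windows, 250 bases before to 50 after a start site, for 5 of the 6 genes. The window at the 5′ end is printed for 4 of them, 5′ to 3′. For CDKN2A this is the upstream promoter, that of p14ARF and not of p16INK4a. No genome of the peaks' build was used, so these windows are not placed on the peaks. Capitals mark a RUNX core motif (TGNGGT on either strand) or an E-box (CACGTG).
CDKN1A (chr6:36678464-36678763, plus strand): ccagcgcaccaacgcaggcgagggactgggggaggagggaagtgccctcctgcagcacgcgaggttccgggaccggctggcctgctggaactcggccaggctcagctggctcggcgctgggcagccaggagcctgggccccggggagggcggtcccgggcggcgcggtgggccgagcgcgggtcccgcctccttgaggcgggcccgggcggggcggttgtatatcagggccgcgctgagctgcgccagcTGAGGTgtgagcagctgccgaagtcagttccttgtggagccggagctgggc
CDKN1B (chr12:12717118-12717417, plus strand): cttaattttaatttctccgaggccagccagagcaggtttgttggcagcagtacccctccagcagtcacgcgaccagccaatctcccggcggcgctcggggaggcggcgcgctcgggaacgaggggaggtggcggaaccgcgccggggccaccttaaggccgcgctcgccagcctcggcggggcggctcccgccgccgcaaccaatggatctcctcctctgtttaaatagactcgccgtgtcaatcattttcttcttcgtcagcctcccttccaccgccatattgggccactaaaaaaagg
CDK6 (chr7:92836524-92836823, minus strand): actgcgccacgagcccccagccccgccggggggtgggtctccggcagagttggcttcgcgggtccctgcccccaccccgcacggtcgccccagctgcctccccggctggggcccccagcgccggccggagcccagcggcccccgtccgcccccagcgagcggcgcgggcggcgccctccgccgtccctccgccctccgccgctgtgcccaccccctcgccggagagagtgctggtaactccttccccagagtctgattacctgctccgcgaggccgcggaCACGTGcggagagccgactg
CDKN2A (chr9:21995275-21995574, minus strand): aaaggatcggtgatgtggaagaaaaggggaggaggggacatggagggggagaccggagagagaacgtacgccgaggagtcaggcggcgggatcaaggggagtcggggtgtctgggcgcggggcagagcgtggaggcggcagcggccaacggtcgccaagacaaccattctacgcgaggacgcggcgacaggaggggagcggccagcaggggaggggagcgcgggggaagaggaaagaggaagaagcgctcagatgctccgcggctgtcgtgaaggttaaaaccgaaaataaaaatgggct
All 4 are rich in CpG, with 29, 29, 37 and 28 CpG dinucleotides in 300 bases in the order printed. CDKN1A had 1 RUNX core motif, across its start site, and 43.2% of all 35116 RefSeq promoter windows hold at least 1. CDK6 had 1 E-box, the site of MYC and related factors, which 7.26% of windows hold. The E2F motifs TTTCGCGC and TTTGGCGC (0.515% and 0.652% of windows) and the TATA box TATAAA (11.5%) were searched on both strands and were not in these letters. Motifs were also searched in the CCND3 window at its 5′ end, which held none of the 5. A match is a description of the letters and not a binding site.

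The 6 loci fell into 3 kinds. At CDK6 and CCND3, H3K27ac peaks covered 62.6% and 64.5% of the window in ACBI and 72.7% and 65.6% in DMSO. CDKN1B, CDKN2A and CDKN1A had narrower domains, of 9834 to 26734 bp in all in DMSO. CCND2 had no peak of any list in its gene. H3K27ac cover was lower in ACBI at all 6, but at CCND2 and CCND3 the direction turned under some settings (ratios up to 1.15 and 1.01). Only at CDKN1A did it reach the 2-fold difference used as a threshold here. Across the genome, 50.3% of bins of 100 kb with at least 5 kb of DMSO H3K27ac had a ratio at or under 0.5. Only 4.16% of them had a ratio at or over 1. Of the 6 windows 5 held a BRG1 peak, beside 16.7% of bins of 100 kb across the genome. All 6 held RUNX1, H3K4me3 and H3K27ac in ACBI and in DMSO, beside 28.9%, 23.1%, 35.2% and 43.0% of bins. The windows are 55 to 282 kb long and placed on genes, and the bins are not, so the 2 units are unlike.

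**Figure D1:**
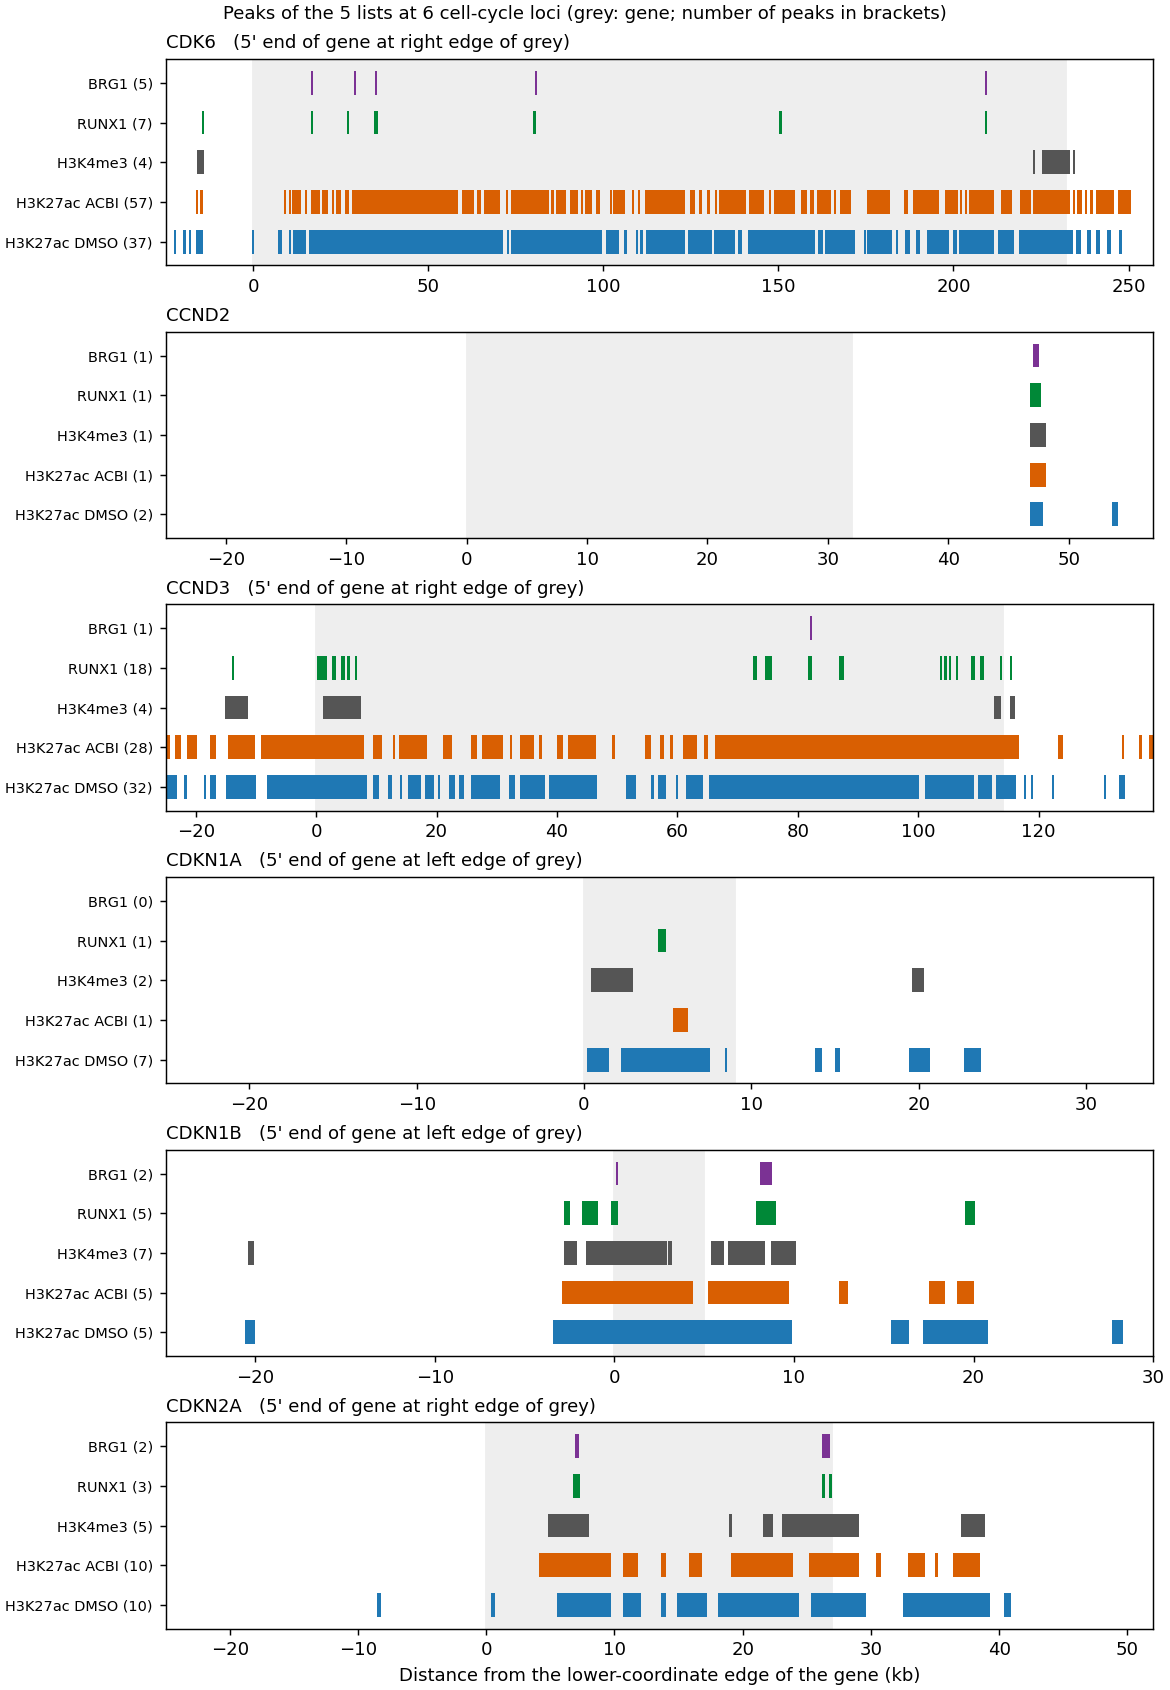
Peaks of the 5 lists at each locus; the x axis is distance in kb from the lower-coordinate edge of the gene, grey is the gene, and each bar is 1 peak, the narrowest drawn wider than scale so that they can be seen. CDK6 and CCND3 are filled with H3K27ac in ACBI and DMSO, the gene of CCND2 is empty, and CDKN1A has 1 ACBI and 7 DMSO H3K27ac peaks.

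CDK6 (chromosome 7, gene 92234 to 92466 kb, on the minus strand) had the longest H3K27ac cover of the 6. Its window of 282 kb held 57 H3K27ac peaks in ACBI and 37 in DMSO, yet they covered 176509 bp in ACBI and 204905 bp in DMSO, a ratio of 0.861. A peak of the DMSO list was often divided among ACBI peaks: 13 of the 37 met 2 or more of them, beside 5.64% of the whole DMSO list. Among DMSO peaks that reach 10 kb, 77.5% of 970 in the genome were divided, and at CDK6 4 of 5. The flanks of CDK6 went the other way from its gene, with 14272 bp in ACBI and 12348 bp in DMSO.

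The widest CDK6 peak in DMSO ran over 55364 bp (chr7:92249936-92305299) in the part of the gene far from its start. In ACBI, 9 peaks covered 47447 bp of it, the widest of them 30291 bp (chr7:92262221-92292511). This domain held 3 BRG1 and 3 RUNX1 peaks and no H3K4me3. The next, of 26080 bp (chr7:92307631-92333710), held 1 BRG1 and 1 RUNX1 peak, and 7 ACBI peaks covered 20339 bp of it. The third, of 19181 bp (chr7:92375290-92394470), held 1 RUNX1 peak, and 5 ACBI peaks covered 13459 bp of it. None of the 3 overlapped H3K4me3.

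With H3K27ac peaks joined across the gap customary for super-enhancers, a single domain spanned nearly the whole gene in both libraries. It measured 263 kb with 58 peaks in ACBI and 277 kb with 37 peaks in DMSO, and the peaks filled 67.6% of it in ACBI and 73.6% in DMSO. The CDK6 promoter carried an H3K4me3 peak of 7941 bp across the 5′ end (chr7:92459241-92467181), and H3K27ac covered 7930 bp of it in ACBI and all 7941 bp in DMSO. Neither BRG1 nor RUNX1 had a peak on it. Of the 37 DMSO peaks 8 had no ACBI peak, beside 59.1% of all DMSO peaks in the genome and 80.1% of those under 1 kb. These 8 were narrow, from 201 to 1030 bp. The widest of them (chr7:92241239-92242268) lay 432 bp from an ACBI peak that itself had no DMSO partner.

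The factors sat in the body of CDK6. All 5 BRG1 peaks and 6 of 7 RUNX1 peaks lay in the gene, and the remaining RUNX1 peak lay on an H3K4me3 peak in the flank toward the neighbouring gene FAM133B. BRG1 met RUNX1 at 4 of its 5 sites, and the other site was 1627 bp from the nearest RUNX1 peak. The BRG1 peaks were 22.8 to 215.3 kb from the 5′ end and none was on H3K4me3. The widest was 474 bp (chr7:92314385-92314858), inside a RUNX1 peak of 952 bp. The widest RUNX1 peak, of 1288 bp (chr7:92268519-92269806), held a BRG1 peak of 403 bp with midpoints 63.5 bp apart. H3K27ac covered all 5 BRG1 peaks fully in ACBI and in DMSO.

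CCND3 (chromosome 6, gene 41903 to 42017 kb, on the minus strand) encodes a D-type cyclin, and its window had more peaks of RUNX1, H3K4me3 and H3K27ac than that of CCND2, the other D-type cyclin gene examined. H3K27ac covered 105727 bp of its 164 kb window in ACBI and 107617 bp in DMSO, a ratio of 0.982. The counts were 28 peaks in ACBI and 32 in DMSO. Of the 28 ACBI peaks 2 ran over several DMSO peaks, beside 6 of 57 at CDK6, and 4 of the 32 DMSO peaks at CCND3 were divided. The widest ACBI peak, of 50644 bp (chr6:41969169-42019812), ran across the 5′ end of the gene, over 4 separate DMSO peaks. The widest of those 4 measured 34830 bp (chr6:41968349-42003178), and 34010 bp of it was covered in ACBI. At the opposite end of the gene a DMSO peak of 16670 bp (chr6:41894808-41911477) had 16103 bp covered by an ACBI peak of 16999 bp.

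CCND3 had the most RUNX1 peaks of the 6 loci, with 18 of their 35 but 1 of their 11 BRG1 peaks. Scaled from its 164 kb window, that is 11.0 RUNX1 peaks per 100 kb, and CDKN1B was close at 9.09. RUNX1 covered 6.32% of the window at CCND3 and 5.71% at CDKN1B. Of the 30947 bins of 100 kb across the genome, 0.197% held 10 or more RUNX1 peaks. The RUNX1 peaks of CCND3 came in runs. A run of 5 spanned 6.59 kb at the 3′ end of the gene, a run of 4 spanned 15.0 kb in the body, and a run of 8 spanned 12.0 kb around the 5′ end. The widest, of 1610 bp (chr6:41903182-41904791), was in the first of these runs. The BRG1 peak of 173 bp (chr6:41985136-41985308) lay inside a RUNX1 peak of 698 bp in the body.

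H3K4me3 at CCND3 was wider at the 3′ end of the gene than at its 5′ end. A peak of 6352 bp (chr6:41904090-41910441) held 5 RUNX1 peaks, and H3K27ac covered it fully in ACBI and in DMSO. The peak nearest the 5′ end measured 1179 bp, of which 1179 bp were covered in ACBI and 897 bp in DMSO. RefSeq lists 3 promoter windows for CCND3. In GRCh38 the one at the 5′ end is chr6:42048639-42048938. The others, chr6:41941759-41942058 and chr6:41939156-41939455, lie inside the gene toward its 3′ end, the side of the wide peak. The windows were not placed on the build of the peaks, so which of them the wide peak holds was not determined. All 18 RUNX1 peaks overlapped H3K27ac in both libraries. CCND3 also had the most gained peaks, meaning ACBI peaks with no DMSO overlap: 8 of 28 (28.6%, interval 13.2 to 48.7), beside 21.4% of all ACBI peaks. They measured 195 to 1107 bp, and 5 of the 7 that reached 500 bp lay within 1 kb of a DMSO peak, at gaps of 14 to 764 bp. Against them, 11 of 32 DMSO peaks were lost, beside 59.1% of all DMSO peaks. The widest of the 11 measured 1637 bp (chr6:41954502-41956138).

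CCND2 (chromosome 12, gene 4383 to 4415 kb) had far fewer peaks than CCND3. None of the 5 lists had a peak anywhere in its 32 kb gene. The window held 6 peaks, all in the flank on the side of the neighbouring gene TIGAR. TIGAR was not placed on hg19, so whether these peaks belong to it and not to CCND2 was not determined. Of these, 5 sat on 1 site: H3K4me3 of 1360 bp (chr12:4429762-4431121), RUNX1 of 914 bp, BRG1 of 466 bp and H3K27ac of 1254 bp in ACBI and 1089 bp in DMSO. The remaining peak was a DMSO H3K27ac peak of 408 bp (chr12:4436645-4437052) that was 5582 bp from the nearest ACBI peak. The midpoints of BRG1 and RUNX1 at the shared site were 4.0 bp apart. With no peak in the gene, its cover ratio of 0.838 describes the flank only, and it was 1.15 when H3K27ac peaks under 500 bp were left out. An absent peak shows that the caller reported none there, at a depth that is unknown.

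**Figure D2:**
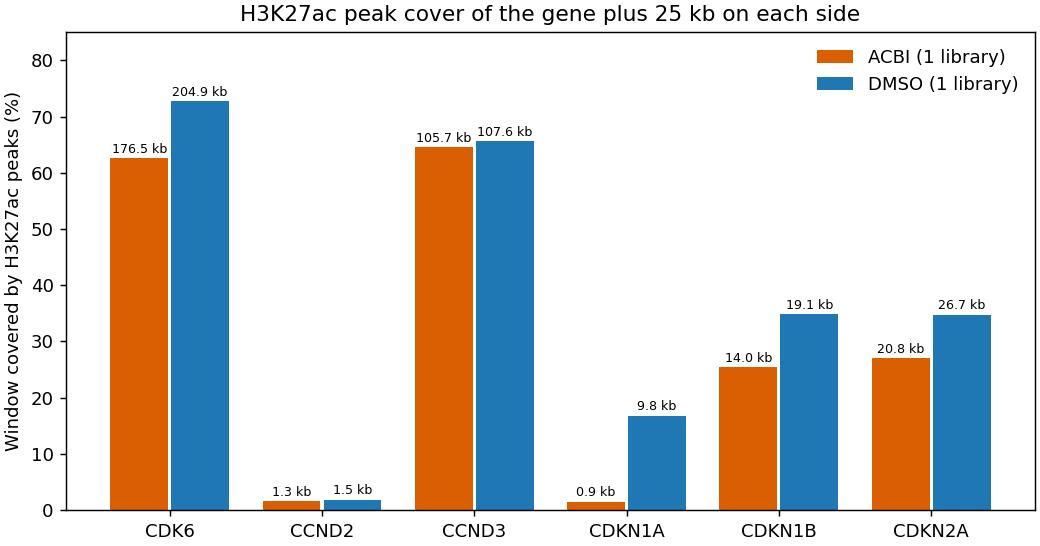
Percent of each window (gene plus 25 kb on each side) covered by H3K27ac peaks, ACBI left of DMSO, 1 library each, with the covered length above each bar. CDKN1A has 1.45% in ACBI and 16.7% in DMSO, and CCND3 64.5% in ACBI and 65.6% in DMSO.

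CDKN1A (chromosome 6, gene 36646 to 36655 kb, on the plus strand), which encodes p21, was where the H3K27ac lists differed most. The window held 1 H3K27ac peak of 857 bp in ACBI and 7 peaks of together 9834 bp in DMSO, a ratio of 0.0871. The ACBI peak (chr6:36651319-36652175) lay 5.3 kb into the gene and inside the widest DMSO peak of 5359 bp (chr6:36648184-36653542), of which it covered 16.0%. Of the 1076 DMSO peaks of 5 to 6 kb in the genome, 8.27% had that share or less covered in ACBI. The other 6 DMSO peaks had no ACBI peak (85.7% of the 7, interval 42.1 to 99.6), beside 59.1% of all DMSO peaks, which is inside that interval. Of these 6, 4 were under 1 kb, and 80.1% of such peaks in the genome had none.

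The difference included the CDKN1A promoter. An H3K4me3 peak of 2525 bp (chr6:36646422-36648946) began 0.4 kb from the 5′ edge of the gene. That edge is rounded to 1 kb, so whether the peak spans the start site was not determined. H3K27ac covered none of this H3K4me3 peak in ACBI and 1843 bp of it in DMSO. The DMSO peak nearest the gene start, of 1297 bp (chr6:36646205-36647501), was 3818 bp from any ACBI peak. A second H3K4me3 peak of 689 bp lay 19.6 kb from the 5′ end, and its 1305 bp DMSO H3K27ac peak (chr6:36665372-36666676) was 13197 bp from any ACBI peak. So both H3K4me3 peaks of the locus were on H3K27ac in DMSO and off it in ACBI. In the genome 16.0% of H3K4me3 peaks on DMSO H3K27ac overlapped none in ACBI, as did 9.61% of those of at least 1 kb and 4.15% of those of at least 2 kb.

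CDKN1A was also the locus without BRG1: its window had 0 BRG1 peaks. It had 1 RUNX1 peak of 571 bp (chr6:36650356-36650926), 4.4 kb from the 5′ end and off H3K4me3. DMSO H3K27ac covered that peak fully and ACBI H3K27ac did not touch it. No other BRG1 or RUNX1 peak of the 6 loci was off H3K27ac in ACBI.

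The other inhibitor genes kept most of their H3K27ac cover. CDKN1B (chromosome 12, gene 12870 to 12875 kb, plus strand), which encodes p27, had 13980 bp of H3K27ac in ACBI and 19135 bp in DMSO, each in 5 peaks, a ratio of 0.731. In DMSO a single peak of 13250 bp (chr12:12866618-12879867) covered the whole gene. In ACBI, 2 peaks of 7240 and 4535 bp covered 11775 bp of it. The gap between them, from 4.4 to 5.2 kb, fell near the 3′ end of the gene.

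The CDKN1B promoter peak of H3K4me3, 4455 bp across the 5′ end (chr12:12868435-12872889), was covered fully by H3K27ac in ACBI and in DMSO. A RUNX1 peak of 447 bp (chr12:12869760-12870206) lay at the 5′ edge of the gene, which is rounded to 1 kb, and held a BRG1 peak of 153 bp. Whether either peak reaches the start site was not determined. A wider pair lay 8.1 kb downstream, past the gene and toward the neighbouring gene APOLD1. There a BRG1 peak of 737 bp (chr12:12878060-12878796) was inside a RUNX1 peak of 1025 bp. CDKN1B had the densest H3K4me3 of the 6, with 7 peaks covering 18.0% of its window. An H3K4me3 peak of 324 bp 20.1 kb upstream, on the side of GPR19, was off H3K27ac in ACBI and on it in DMSO. The lost DMSO peak of 1068 bp (chr12:12885363-12886430) was 15.4 kb from the 5′ end.

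CDKN2A (chromosome 9, gene 21968 to 21995 kb, on the minus strand) carried all 5 kinds of peak. It had 20807 bp of H3K27ac in ACBI and 26734 bp in DMSO, each in 10 peaks, a ratio of 0.778. RefSeq lists 2 promoter windows for CDKN2A in GRCh38: the upstream one printed above, and chr9:21974808-21975107 inside the gene, on the p16INK4a side. They were not placed on the build of the peaks. H3K4me3 marked the 5′ end of CDKN2A with a peak of 5938 bp (chr9:21991137-21997074). It marked a site inside the gene with a peak of 3142 bp (chr9:21972837-21975978), and whether that peak holds the second window was not determined. H3K27ac covered 4641 bp of the wide one in ACBI and 5073 bp in DMSO. It covered 3142 bp of the inner one in ACBI and 2473 bp in DMSO, so at that site the cover was larger in ACBI.

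Each of these H3K4me3 peaks held BRG1 with RUNX1. At the 5′ end a BRG1 peak of 625 bp (chr9:21994223-21994847) overlapped 2 RUNX1 peaks of 175 and 251 bp. At the inner site a BRG1 peak of 284 bp (chr9:21974913-21975196) lay inside a RUNX1 peak of 441 bp with midpoints 8.5 bp apart. The largest difference between the H3K27ac lists was outside the gene, on the side of CDKN2B, itself a CDK inhibitor gene. CDKN2B was not placed on hg19, so whether these flank peaks lie on it was not determined. There a DMSO peak of 6742 bp (chr9:22000521-22007262) had 3628 bp covered by 3 ACBI peaks. The flanks together had 6103 bp in ACBI and 10085 bp in DMSO, a ratio of 0.605, against 0.883 in the gene. The 3 lost peaks, of 10 in DMSO, were narrow, at 304 to 405 bp, and 59.1% of all DMSO peaks were lost.

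Set side by side, the ratios of ACBI to DMSO cover ran from 0.0871 at CDKN1A through 0.731 at CDKN1B, 0.778 at CDKN2A, 0.838 at CCND2 and 0.861 at CDK6 to 0.982 at CCND3. Summed over the loci, H3K27ac covered 319134 bp in ACBI and 369722 bp in DMSO, a ratio of 0.863. Of the 6184 bins of 100 kb with at least 5 kb of DMSO H3K27ac, 50.3% had a ratio at or under 0.5, and the median bin was at 0.498. Of the 6 loci 1 was at or under 0.5. None reached a ratio of 2, and 0.0809% of bins did. Only 4.16% of bins had as much cover in ACBI as in DMSO, or more.

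Densely covered bins had higher ratios across the genome, and CDK6 and CCND3 are dense: 0.902% of bins had 50 kb or more of DMSO H3K27ac. In bins with 50 kb or more of DMSO H3K27ac the median was 0.73 (quartiles 0.595 and 0.87, n = 279 bins), and in bins with 10 to 20 kb it was 0.471 (0.328 and 0.624, n = 1944 bins). Per 100 kb, CDK6 and CCND3 had 62592 and 64467 bp in ACBI and 72661 and 65620 bp in DMSO. The ratio of CDK6 was within the quartiles of bins of like density, and that of CCND3 above them. CDKN1A had 9834 bp in its 59 kb window in DMSO, which scales to 16668 bp per 100 kb. A ratio as low as its own or lower was found in 1.75% of the bins with 10 to 20 kb. It was found in 5.08% of those with 5 to 10 kb and in 2.55% of all bins with at least 5 kb. The split of the bins by density was chosen after the ratios were seen.

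**Figure D3:**
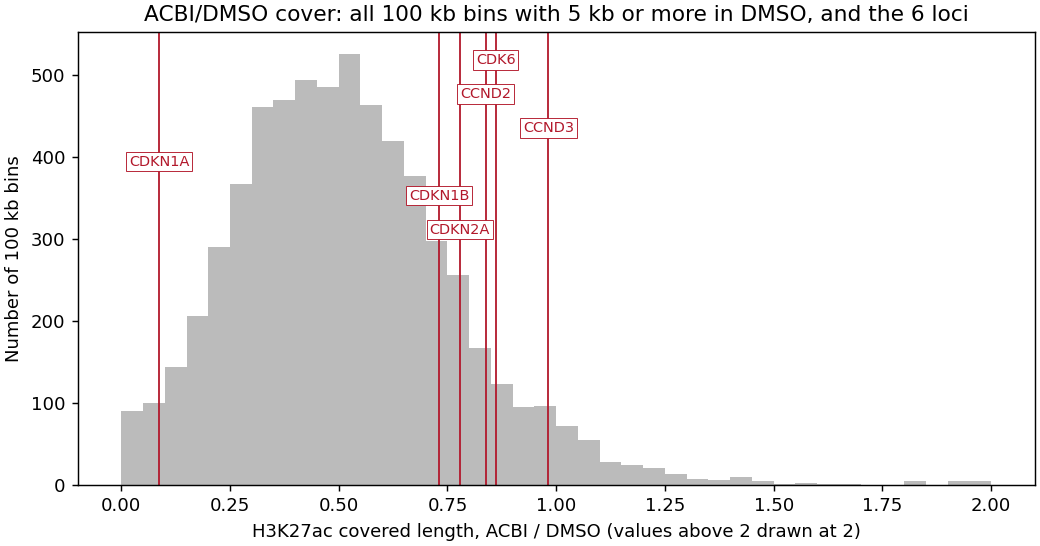
Histogram of the ratio of H3K27ac covered length, ACBI over DMSO, in the 6184 bins of 100 kb with at least 5 kb of DMSO H3K27ac, with the 6 loci as vertical lines. CDKN1A stands at 0.0871, and the other 5 lie between 0.731 and 0.982, above the median bin of 0.498; CCND2 had under 5 kb in DMSO.

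By peaks, 32 of the 93 DMSO H3K27ac peaks at the 6 loci had no ACBI peak (34.4%, interval 24.9 to 45.0), beside 59.1% of all DMSO peaks. CDK6 and CCND3 held 37 and 32 of the 93, so the peaks are not independent and the interval is too narrow. Width goes with loss, so the counts were also split at 1 kb. Of the 54 peaks of at least 1 kb 5 were lost, beside 26.7% in the genome, and of the 39 narrower peaks 27 were lost, beside 80.1%. Median widths were 440 bp for the lost and 2653 bp for the kept. The share lost depended on the rule: it was 49.5% when ACBI peaks had to cover 50% of a DMSO peak and 16.4% over equal numbers of the widest peaks. CDKN1A held 6 of the 32 lost peaks, and only 1 of its 7 peaks was kept. At CDK6 it was 8 of 37, at CCND3 11 of 32, at CDKN1B 3 of 5, at CDKN2A 3 of 10 and at CCND2 1 of 2.

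**Figure D4:**
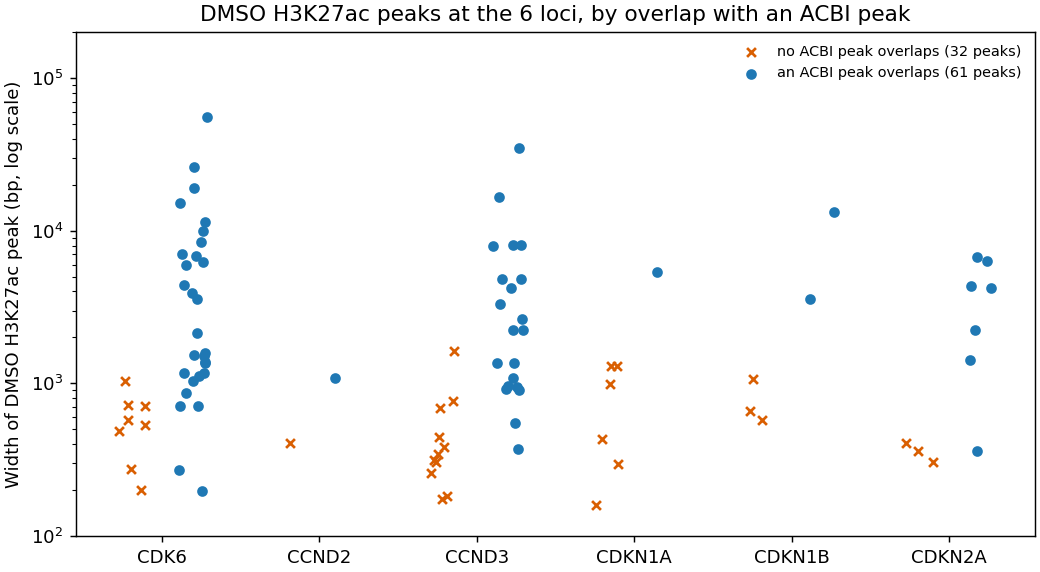
Width in bp (log axis) of each of the 93 DMSO H3K27ac peaks, by locus; crosses are the 32 peaks without an overlapping ACBI peak and circles the 61 with one. Peaks without an ACBI partner measured 160 to 1637 bp, and those with one 198 to 55364 bp.

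Gained peaks were fewer: 12 of the 102 ACBI peaks at the loci had no DMSO peak (11.8%, interval 6.23 to 19.6), beside 21.4% of all ACBI peaks. Of the 84 ACBI peaks of at least 500 bp 9 were gained, beside 11.8% in the genome. The share was 5.41% without CCND3, 22.2% without CDK6, 21.6% under the 50% rule and 2.94% when a DMSO peak within 1 kb counted. CCND3 held 8 of the 12, CDK6 2, CDKN1B 1 and CDKN2A 1. The CDKN1B one measured 524 bp (chr12:12882506-12883029), and that of CDKN2A 381 bp.

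The sites of the factor peaks overlapped H3K27ac in both lists, apart from the RUNX1 peak in CDKN1A. BRG1 and RUNX1 were mapped only in cells with no treatment label, so their binding under ACBI is unknown. All 11 BRG1 peaks of the loci overlapped H3K27ac in ACBI and in DMSO, beside 70.6% and 91.9% of all BRG1 peaks. In the genome 23.7% of BRG1 peaks on DMSO H3K27ac overlapped none in ACBI. The count of 0 of 11 allows a share of up to 27.3%, taken as 3 counts of the total and not as an exact interval, and 23.7% is under that limit. Of the 35 RUNX1 peaks 34 were on H3K27ac in ACBI and 35 in DMSO, beside 64.3% and 83.8% of all RUNX1 peaks, and 23.9% of RUNX1 peaks on DMSO H3K27ac in the genome were off it in ACBI. Of the 23 H3K4me3 peaks 20 were on H3K27ac in ACBI and 23 in DMSO, beside 78.5% and 92.8% of the list. The 3 off it in ACBI were the 2 of CDKN1A and the upstream one of CDKN1B. Many of these peaks share a domain, so they are not independent.

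BRG1 and RUNX1 met at 10 of the 11 BRG1 peaks (90.9%, interval 58.7 to 99.8), beside 80.7% of all BRG1 peaks. Of the RUNX1 peaks 11 of 35 held BRG1 (31.4%, 16.9 to 49.3), beside 29.8% of all RUNX1 peaks. Both intervals include the share of the whole list. The median distance between the midpoints of an overlapping pair was 63.5 bp, and RUNX1 peaks held 8 of the BRG1 peaks entirely. The sites differed by gene: at CDKN1B, CDKN2A and the site near CCND2 all 5 BRG1 peaks were on H3K4me3, and at CDK6 and CCND3 none of 6 was. Over the 6 loci 5 of 11 BRG1 peaks and 17 of 35 RUNX1 peaks were on H3K4me3, beside 61.8% and 43.0% of the lists. Of the 23 H3K4me3 peaks 6 held BRG1 and 12 held RUNX1, beside 34.5% and 58.8%.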

How the data were processed

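CUT&RUN peak lists of 5 libraries of DND-41 cells were used, 1 per target and condition. Groups follow the antibody and treatment that the titles name. The authors deposited each list as chromosome, start, end and name, with no score, signal or read count. The submitters' processing notes name hg19, MACS2 and SEACR. MACS2 made the RUNX1 list and the H3K27ac lists are broad peaks at q below 0.01, per the file headers. Not given in the sources used here are the other thresholds, the aligner and how controls entered.

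Gene windows came from the rule that defines the 6 loci, and members and lists were chosen with earlier results of these data known. A peak belonged to a locus, or was shared, at 1 bp of overlap. Cover was clipped to the window, and a ratio at or under 0.5 or at or over 2 counted as different. Every BRG1, RUNX1 and H3K4me3 peak was counted. For H3K27ac the 3 widest DMSO peaks per locus, lost peaks of at least 1 kb and gained peaks of at least 500 bp were to be named. Some others were named after their values were seen. Other G1 genes and T-cell markers were not analysed here, since the gene table is of GRCh38 and served only for neighbours by name. Python 3.11.15, numpy 2.4.6, pandas 2.3.3, scipy 1.17.1 and matplotlib 3.10.9 were used. Overlaps were tested on simulated intervals and compared with those of bedtools 2.31.1, where 0 peaks differed over all 25 ordered list pairs. Joined H3K27ac domains used a fixed gap, with 5 kb as an alternative.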

Additional observations from a re-analysis of the deposited data

How the results depend on the processing

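The summed ratio of ACBI to DMSO cover stayed under 1 in every alternative tried, but the ratio turned direction at CCND2 in 2 of 4 settings and at CCND3 in 1 of 6. The number of peaks in the windows was 184, 218 and 318 with flanks of 0, 10 and 50 kb, and 262 by peak midpoint, against 264 as reported. The cause of the changes given here was not tested. The summed ratio was 0.861, 0.864 and 0.841 with flanks of 0, 10 and 50 kb, 0.865 with peaks of at least 500 bp, 0.885 with equal numbers of the widest peaks and 0.866 with border peaks counted whole. It was 0.865 without CDK6, 0.814 without CCND3 and 0.884 without CDKN1A, alternatives chosen after seeing the data. The share of DMSO peaks lost was 23.0% with no flank, 23.9% with peaks of at least 500 bp, 16.4% with the widest peaks, 49.5% when ACBI peaks had to cover 50% and 23.7% when a peak within 1 kb counted. The share gained was 21.6% and 2.94% under those overlap rules, 22.2% without CDK6 and 5.41% without CCND3. The joined CDK6 domain in DMSO was 241 kb with a gap of 5 kb, and also with the widest peaks, both chosen after seeing the data. By locus, the ratio ran from 0.0871 to 0.126 at CDKN1A, 0.842 to 0.872 at CDK6, 0.731 to 0.928 at CDKN1B and 0.689 to 0.883 at CDKN2A. At CCND3 it ran from 0.947 to 1.01, and at CCND2 from 0.838 to 1.15. A stricter peak threshold was not run, since the lists hold no score. No paired analysis was possible because each condition has 1 library. Depth is unknown, so an absent peak may be one the library could not show.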
